A study of Mus musculus with 10 samples.

Results

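Genomic imprinting marks genes in the germ line so that, in the offspring, transcription comes mainly or only from the chromosome of one parent. The mark is DNA methylation laid down at a control region in the egg or the sperm, and after fertilisation it is held by factors such as ZFP57 and TRIM28. Imprinted genes sit in clusters in which a long noncoding RNA and its protein-coding neighbours are usually read from opposite parental chromosomes, and many of them act in growth, placenta and brain. Imprints are known to differ between embryonic stem cell lines.

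Here 40 mouse genes known to be imprinted, from 17 loci, were followed on each parental chromosome by nascent RNA. They were picked by gene symbol from a list of known imprinted genes, and all 40 have a row among the 24386 genes counted. Transient transcriptome sequencing (TT-seq), in which RNA made during a 5 min pulse of 4-thiouridine at 0.5 mM is purified and sequenced, was applied to TX1072 cells. This is a single female embryonic stem cell line, wild type in genotype, from a hybrid of Mus musculus castaneus (Cast) and C57BL/6 (B6), grown on gelatin with serum, LIF and the inhibitor pair called 2i. A doxycycline (DOX) inducible promoter drives Xist from its own place on the B6 X chromosome. Cells received DOX at 1 µg/ml for 0, 4, 8, 12 or 24 h, with 2 replicates at each time, 10 samples in all. No DOX-treated line without Xist induction was analysed here, so effects of the drug, of Xist and of time in culture cannot be told apart. The study calls its TT-seq replicates biological duplicates, but the labels do not say what separated them, so p-values measure the spread between these samples only. All are bulk samples, in which fewer cells making an RNA and less of it per cell cannot be told apart.

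Total counts ran from 18809046 to 22274929 per sample, and 49.2% to 52.8% of them could be assigned to B6 or Cast by sequence differences. Stem cell markers were abundant, with a summed level of 2676 to 2967 CPM (counts scaled to a common library size) over 8 genes, 7 of them detected. Summed markers of primitive endoderm reached 2.92 CPM, of trophoblast 7.52, of fibroblasts 6.01 and of neural cells 14.9. Sox2 was listed at 0, but it lies wholly inside Sox2ot on the same strand, and all 1711 genes placed in that way were listed at 0 in every sample. A value of 0 for such a gene was therefore not read as absence of transcription.

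The B6 share (the d-score) is B6 reads divided by B6 plus Cast reads. It was computed where at least 10 allelic reads were present, and 1 means B6 only, 0 Cast only and 0.5 equal reads. A gene was described as near single-allele when its share, pooled over all samples, was at least 0.9 or at most 0.1. It was described as biallelic from 0.3 to 0.7 and as intermediate otherwise. Read pairs carry no molecular identifiers, so the 95% Wilson intervals given with shares cover counting error only.

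None of the imprinted genes was near single-allele by these limits, and most had a pooled share in the biallelic range. In bulk samples such a share does not show whether single cells read both chromosomes. Of the 40 genes, 32 had at least 10 pooled allelic reads. Of these 0 were near single-allele, 4 were intermediate (Inpp5f, Usp29, Ascl2 and Dlk1) and 28 were biallelic. Among the 30 genes known to be imprinted broadly, 23 were scored, with 2 intermediate and 21 biallelic. The other 10 are known to be imprinted only in certain tissues, and of these 9 were scored, with 2 intermediate and 7 biallelic. The same limits took 3.49% of 15244 autosomal genes as near single-allele, 12.2% as intermediate and 84.3% as biallelic. Among the 27 imprinted genes that had 10 or more allelic reads per sample throughout, 2 were intermediate and 25 biallelic. Of these 27 genes 19 lay between 0.4 and 0.6. Of autosomal genes with the same depth 1.73% were near single-allele, 8.07% intermediate and 90.2% biallelic, with quartiles of 0.479 and 0.567. The shares of the 27 genes are shown sample by sample in the plot of B6 share. The median pooled share was 0.505 over these 27 genes and 0.522 over the 11543 autosomal genes with the same depth.

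**Figure D1:**
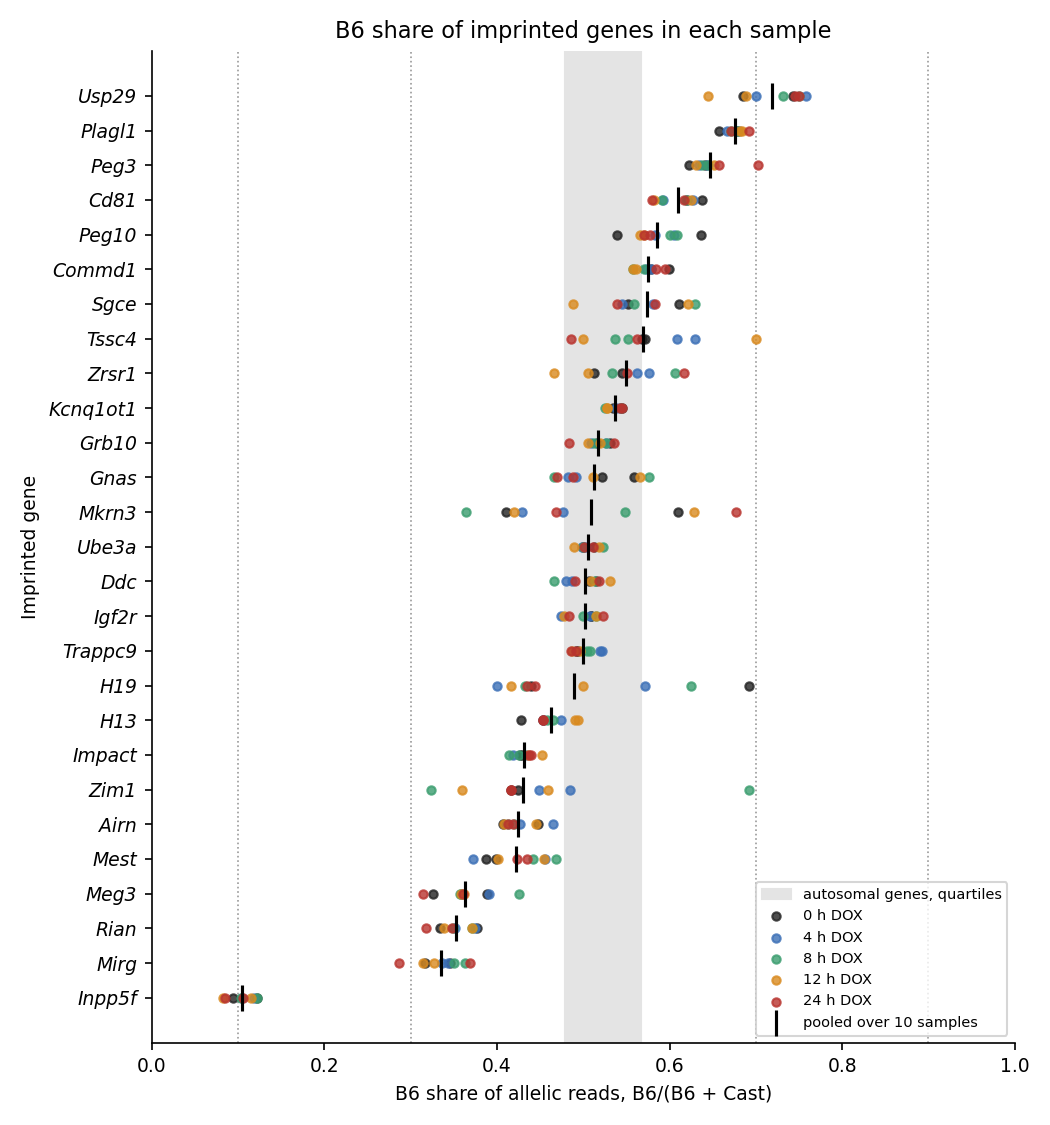
B6 share of allelic reads (horizontal axis, no unit) for the 27 imprinted genes that had 10 or more allelic reads per sample throughout, 1 point per sample coloured by hours of DOX, with the pooled share as a black tick. The grey band spans the quartiles of autosomal genes (0.479 to 0.567) and dotted lines mark 0.1, 0.3, 0.7 and 0.9. Only Inpp5f lies near an edge, at 0.083 to 0.122, and the points of most other genes stay between 0.3 and 0.7 at every time.

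The direction of the shares was set beside the parent each gene is known to be expressed from. Of the 15 scored genes known as paternally expressed, 10 had a pooled share over 0.5 and 5 under it. Of the 14 known as maternally expressed, 7 lay on either side. Set against the autosomal median of 0.522 instead, the split was 8 over and 7 under for paternal genes, and 5 over and 9 under for maternal genes. The 3 genes whose parent differs by tissue or transcript, Grb10, Gnas and Blcap, had shares of 0.517, 0.512 and 0.403. Which strain was the mother of the line was not given in the labels, so the side that a parental bias would take is not known here.

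Promoter sequences are shown for the loci with the most unequal alleles among the genes scored in every sample. Several germ line methylation marks lie at the start of imprinted genes, but whether these windows hold one was not tested. The genes shown were chosen after their shares were seen, since no gene was near single-allele. Each run holds the 250 bases before the RefSeq start on mouse build GRCm38.p6, in the direction of transcription, and capitals mark TGCCGC, the core of the motif bound by methylation-reading ZFP57, or its reverse complement GCGGCA. The window of Inpp5f, chr7:128611115-128611364, plus strand, belongs to the gene with the lowest share.

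Inpp5f: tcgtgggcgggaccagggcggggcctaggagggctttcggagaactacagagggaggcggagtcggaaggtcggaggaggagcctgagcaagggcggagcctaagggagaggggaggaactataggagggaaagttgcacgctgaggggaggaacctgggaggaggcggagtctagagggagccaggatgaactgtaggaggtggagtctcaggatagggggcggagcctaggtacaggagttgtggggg

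The window of Usp29, chr7:6730333-6730582, plus strand, belongs to the scored gene with the highest share among those read in every sample. Peg3 starts inside it on the other strand, so this run lies between the divergent starts of both genes and reaches into the first bases of Peg3.

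Usp29: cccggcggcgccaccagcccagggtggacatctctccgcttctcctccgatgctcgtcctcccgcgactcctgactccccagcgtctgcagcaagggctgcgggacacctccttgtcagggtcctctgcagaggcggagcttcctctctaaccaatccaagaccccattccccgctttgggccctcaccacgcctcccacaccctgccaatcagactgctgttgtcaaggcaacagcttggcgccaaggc

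The window of Plagl1, chr10:13090582-13090831, plus strand, and the first window of Meg3, chr12:109540746-109540995, plus strand, belong to a gene with more B6 reads and to the start of the cluster with more Cast reads.

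Plagl1: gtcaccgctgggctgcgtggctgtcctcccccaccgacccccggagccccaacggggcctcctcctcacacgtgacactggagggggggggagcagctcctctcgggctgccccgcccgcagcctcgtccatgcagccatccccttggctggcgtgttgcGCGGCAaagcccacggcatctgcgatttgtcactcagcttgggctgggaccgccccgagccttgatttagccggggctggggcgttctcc

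Meg3: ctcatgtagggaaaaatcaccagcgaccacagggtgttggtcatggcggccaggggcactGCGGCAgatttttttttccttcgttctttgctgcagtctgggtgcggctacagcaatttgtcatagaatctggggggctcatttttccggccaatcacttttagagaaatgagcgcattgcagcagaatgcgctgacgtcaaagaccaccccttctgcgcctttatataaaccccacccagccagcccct

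Plagl1 and Meg3 hold 1 match each, and the windows of Inpp5f and Usp29 hold none. Over 300 bases around each start, 32 of the 40 genes matched the RefSeq table with 47 windows, of which 10 (21.3%), from 9 genes, held the motif on either strand. The motif was in 11.6% of all 32851 windows. The median number of CpG dinucleotides was 15 in the imprinted windows and 7 in all windows. A match is a description of the letters only.

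Inpp5f, which encodes an inositol phosphatase and has a known paternally expressed transcript in brain that starts inside the gene, was the most unequal of the 27 genes scored in every sample. It spans chr7:128611365-128696436 on the plus strand. The share in replicates 1 and 2 was 0.122 and 0.095 before DOX, 0.105 and 0.118 after 4 h, 0.104 and 0.122 after 8 h, 0.083 and 0.115 after 12 h, and 0.106 and 0.084 after 24 h. The Cast chromosome thus gave most of the nascent reads in all 10 samples, with no overlap with any other scored imprinted gene. Pooled over the samples, 499 of 4767 allelic reads came from B6, a share of 0.105 (0.096 to 0.114), just outside the limit of 0.1. It fell inside that limit in the 24 h samples alone (0.0938) and after shares were centred on the autosomal median (0.0966). Reads were counted over the whole span, introns included, so its transcripts could not be told apart. The 22 neighbouring genes within 1 Mb had a median share of 0.507, from 0.230 to 0.609. Its total level was 45.4 ± 1.96 CPM (SD, n = 10 samples).

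The Peg3 domain on chromosome 7 leaned towards B6 in its paternal pair and towards Cast in Zim1. Usp29, a ubiquitin protease gene of chr7:6730583-6967219 on the plus strand, had shares of 0.685 and 0.743 before DOX, 0.701 and 0.758 after 4 h, 0.732 and 0.750 after 8 h, 0.645 and 0.689 after 12 h, and 0.750 and 0.745 after 24 h. All 10 samples held more B6 than Cast reads, and the pooled share was 0.719 (0.696 to 0.741) of 1477 allelic reads. Peg3, a zinc finger gene of chr7:6705960-6730419 on the minus strand, had a pooled share of 0.647 (0.639 to 0.655) of 12887 reads. Its share was also over 0.5 in all 10 samples, from 0.622 to 0.702 with a median of 0.642. Zim1, known as maternally expressed, had a share of 0.430 (0.375 to 0.487), with 300 reads and sample values from 0.324 to 0.692. The 15 neighbours had a median of 0.550 and a range of 0.362 to 0.737, which holds all 3 genes.

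Plagl1, a zinc finger regulator of growth known as paternally expressed, had more B6 reads in every sample. It spans chr10:13090788-13131695 on the plus strand and shares 12.4% of that span with another gene of the same strand. Its shares were 0.657 and 0.678 before DOX, 0.667 and 0.681 after 4 h, 0.672 and 0.678 after 8 h, 0.681 and 0.683 after 12 h, and 0.672 and 0.693 after 24 h. The spread between samples was narrow, with an SD of 0.0098 around a mean of 0.676 (n = 10 samples). The pooled share of 25256 reads was 0.676 (0.670 to 0.682), whereas the 9 neighbours had a median of 0.577, up to 0.702.

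The Dlk1-Meg3 cluster on chromosome 12 leaned towards Cast along its whole noncoding part. Meg3, Rian and Mirg are long noncoding RNAs known as maternally expressed, all on the plus strand, and Rian and Mirg host small RNAs. Rian (chr12:109603945-109661711) had shares of 0.334 and 0.377 before DOX, 0.352 and 0.375 after 4 h, 0.349 and 0.371 after 8 h, 0.338 and 0.371 after 12 h, and 0.318 and 0.348 after 24 h. The replicate 2 value was above that of replicate 1 at every time. The pooled share of Rian was 0.353 (0.349 to 0.357) of 49262 reads, that of Meg3 0.362 (0.354 to 0.372) of 10977 reads and that of Mirg 0.335 (0.324 to 0.346) of 7297 reads. No sample of the 3 genes reached 0.5, the highest being 0.425 for Meg3. The medians of their neighbours lay at 0.505, 0.523 and 0.521. The lowest neighbour share was 0.278 for each gene, so the range of neighbours holds all 3. Dlk1, a paternally expressed signalling protein gene at the other end, had 10 B6 and 25 Cast reads over all samples, a share of 0.286 (0.163 to 0.451). Its B6 and Cast reads in replicate 1 were 1 and 0 before DOX, 1 and 3 after 4 h, 0 and 3 after 8 h, 4 and 1 after 12 h, and 0 and 2 after 24 h. In replicate 2 they were 0 and 5, 1 and 2, 1 and 4, 1 and 2, and 1 and 3 at the same times, so 8 of the 10 samples held more Cast reads. With 1 to 5 allelic reads per sample, Dlk1 could not be scored within samples, and its side of the 0.3 limit was not resolved at this depth.

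In the Kcnq1 domain, Kcnq1ot1, Cd81, Tssc4 and Slc22a18 were biallelic, Ascl2 was intermediate, and Cdkn1c and Phlda2 had too few reads for a share. Kcnq1ot1, the antisense RNA that in imprinted tissues is read from the paternal chromosome and silences its neighbours, was the most deeply read imprinted gene, with 83847 allelic reads (chr7:143213111-143296547, minus strand). Its shares were 0.534 and 0.544 before DOX, 0.537 and 0.543 after 4 h, 0.544 and 0.526 after 8 h, 0.527 and 0.527 after 12 h, and 0.542 and 0.545 after 24 h. They ran from 0.526 to 0.545 over all samples, and the pooled share was 0.537 (0.534 to 0.540). Cd81, a membrane protein gene, had a share of 0.609 (0.598 to 0.620), over 0.5 in all 10 samples. Its neighbours had a median of 0.506 and a range of 0.274 to 0.692, which holds this share. Tssc4 had 0.570 (0.513 to 0.624) on 302 reads and Slc22a18, a transporter gene, 0.595 (0.445 to 0.730) on 42. Ascl2, a transcription factor gene of the placenta, had 11 B6 and 3 Cast reads in all, a share of 0.786 (0.524 to 0.924) whose interval reaches far into the biallelic range. Its B6 and Cast reads in replicate 1 were 3 and 0 before DOX, 0 and 2 after 4 h, 2 and 0 after 8 h, 1 and 0 after 12 h, and 0 and 0 after 24 h. In replicate 2 they were 0 and 0, 1 and 0, 0 and 0, 1 and 0, and 3 and 1 at the same times, so the lean towards B6 rests on a few reads from 6 samples. Cdkn1c and Phlda2, which restrain growth, had at most 5 and 4 counts in a sample and were not scored. In the adjoining Igf2-H19 locus, the noncoding RNA H19 had a share of 0.489 (0.429 to 0.549) of 266 reads, with sample values from 0.400 to 0.692. Igf2, the growth factor gene, had 2 to 5 counts per sample and no share.

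At the Igf2r locus, the receptor gene and its antisense RNA were read from both chromosomes. Igf2r, known as maternally expressed, had a pooled share of 0.502 (0.493 to 0.510) of 13062 reads and sample values from 0.475 to 0.523. Airn, the paternal noncoding RNA that overlaps it on the other strand, had 0.425 (0.411 to 0.438) of 5074 reads. Airn stayed under 0.5 in all 10 samples, from 0.407 to 0.464. Its neighbours had a median of 0.490 and a range of 0.245 to 0.818, which holds these values.

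The Prader-Willi and Angelman locus was biallelic where it could be scored. Ube3a, a ubiquitin ligase gene imprinted in neurons, had shares of 0.513 and 0.500 before DOX, 0.504 and 0.499 after 4 h, 0.500 and 0.523 after 8 h, 0.519 and 0.489 after 12 h, and 0.511 and 0.501 after 24 h (chr7:59228750-59306727, plus strand). These values lie on both sides of 0.5, and the pooled share was 0.505 (0.499 to 0.511) of 29865 reads. Mkrn3, a paternal ring finger gene, had 0.509 (0.455 to 0.564) on 318 reads, and Ndn, a paternal gene of neurons, 0.548 (0.378 to 0.708) on 31. Magel2 reached 4 counts in a sample at most. Snrpn, the splicing protein gene at the imprinting centre, was listed at 0 in every sample, and its span lies wholly inside Snhg14 on the same strand.

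The remaining loci were biallelic wherever they could be scored. Impact, a translation regulator known as paternally expressed, had shares of 0.427 and 0.429 before DOX, 0.419 and 0.434 after 4 h, 0.425 and 0.414 after 8 h, 0.436 and 0.452 after 12 h, and 0.438 and 0.439 after 24 h. All 10 samples leaned to Cast, with a pooled share of 0.431 (0.424 to 0.438) of 19417 reads. The 9 neighbours had a median of 0.564 and a range of 0.345 to 0.797, which holds this share. Mest, a paternal enzyme gene of mesoderm, had 0.422 (0.404 to 0.441). The retrotransposon-derived Peg10 and its divergent neighbour Sgce, both paternal, had 0.585 and 0.574. The neighbour median was 0.586 for each, but it rests on only 4 genes, with shares from 0.019 to 0.849.

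Grb10, an adaptor that restrains growth, and Ddc, which makes dopamine and serotonin, had 0.517 and 0.502, both under a neighbour median of 0.587. The 5 neighbours of each ran from 0.555 to 0.687, a range that holds neither share. Zrsr1 and its host gene Commd1, on opposite strands, had 0.550 and 0.575, H13 had 0.463, Gnas, a G protein subunit gene, 0.512, and Trappc9 0.499. The known parent of Gnas differs by tissue or transcript, and reads over its whole span could not tell its transcripts apart. Blcap had 149 allelic reads, only 2.77% of its counts, and 9 samples with a share, from 0.235 to 0.583. Nnat, which lies inside Blcap on the other strand, had at most 4 counts in a sample and no allelic read. Kcnk9, a potassium channel gene, and Peg13, which lies wholly inside Trappc9 on the same strand, were listed at 0 throughout. Together with Igf2, Cdkn1c, Phlda2, Magel2, Snrpn and Nnat, these are the 8 genes without a pooled share.

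Set beside their neighbours, 8 of the 26 scored genes with neighbours were more than 0.1 away from the neighbour median. Of 11440 other autosomal genes with the same depth, 24.1% lay as far from their own neighbours. The 8 genes were Inpp5f, Usp29, Mirg, Rian, Meg3, Impact, Zim1 and Cd81, with Cd81 and Usp29 above their neighbours and the others below.

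**Figure D2:**
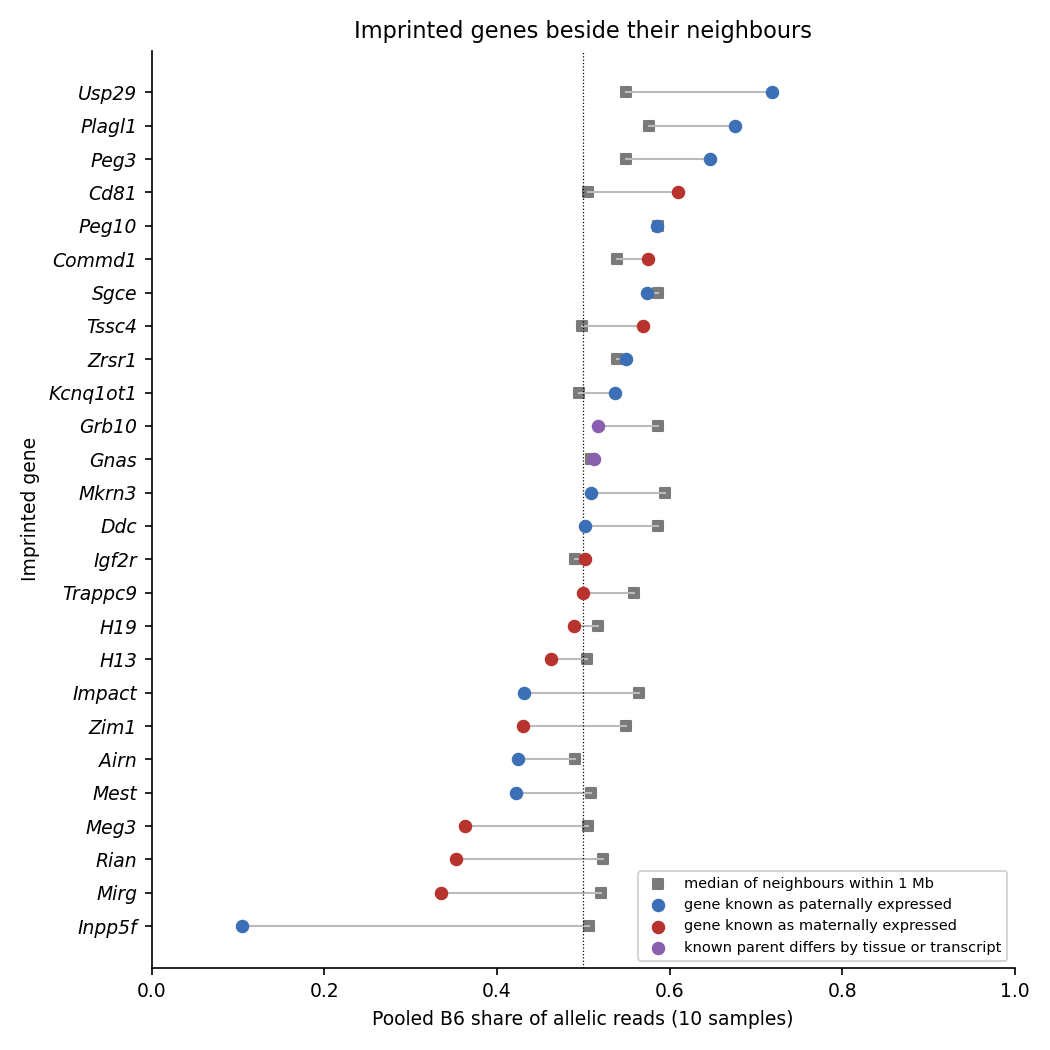
Pooled B6 share (horizontal axis, no unit) of each imprinted gene that had 10 or more allelic reads per sample throughout, coloured by the parent it is known to be expressed from, joined to the median share of neighbouring genes within 1 Mb (grey squares). Ube3a is absent because it has no such neighbour. Blue and red points lie on both sides of 0.5, and the longest line is that of Inpp5f (0.105 against 0.507).

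The inequality of the alleles was tested over all 11906 genes that had 10 or more allelic reads per sample throughout. An edgeR model of the B6 and Cast counts gave the log2 ratio of B6 to Cast reads, and a ratio beyond 2-fold either way was tested. Of the 27 imprinted genes 3 passed, against 9.82% of all genes and 9.78% of the autosomal ones, the background nearer to the imprinted genes, all of which are autosomal. Inpp5f had a log2 ratio of -3.09 (SE 0.058, edgeR adjusted p = 3.58e-17), Usp29 1.35 (SE 0.082, edgeR adjusted p = 5.37e-04) and Plagl1 1.06 (SE 0.021, edgeR adjusted p = 0.0106). When each allele column was scaled by TMM, which moves the median ratio of all genes by more than 0.1, Plagl1 fell below the limit (0.94) and Mirg passed it (-1.11). In the 0 h samples alone Inpp5f was the one gene past the limit.

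Any difference from equal reads was found for 20 of the 27 genes, 11 with more B6 and 9 with more Cast reads, against 73.6% of all genes and 73.2% of autosomal genes. The share of imprinted genes was thus close to the background on both counts. The median size of the log2 ratio was 0.40 over the 27 genes and 0.29 over all genes tested.

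Levels per length ran over a wide range. Kcnq1ot1 gave 9.57 CPM per kb of gene span, followed by Impact with 8.31, Rian with 7.30, Peg10 with 5.95, Cd81 with 5.38 and Peg3 with 5.14. The lowest of the 27 genes was Usp29 with 0.0549 CPM per kb. Biallelic genes stood along the whole range, and the leanings of Plagl1 and of the Meg3 cluster were in well-read genes.

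**Figure D3:**
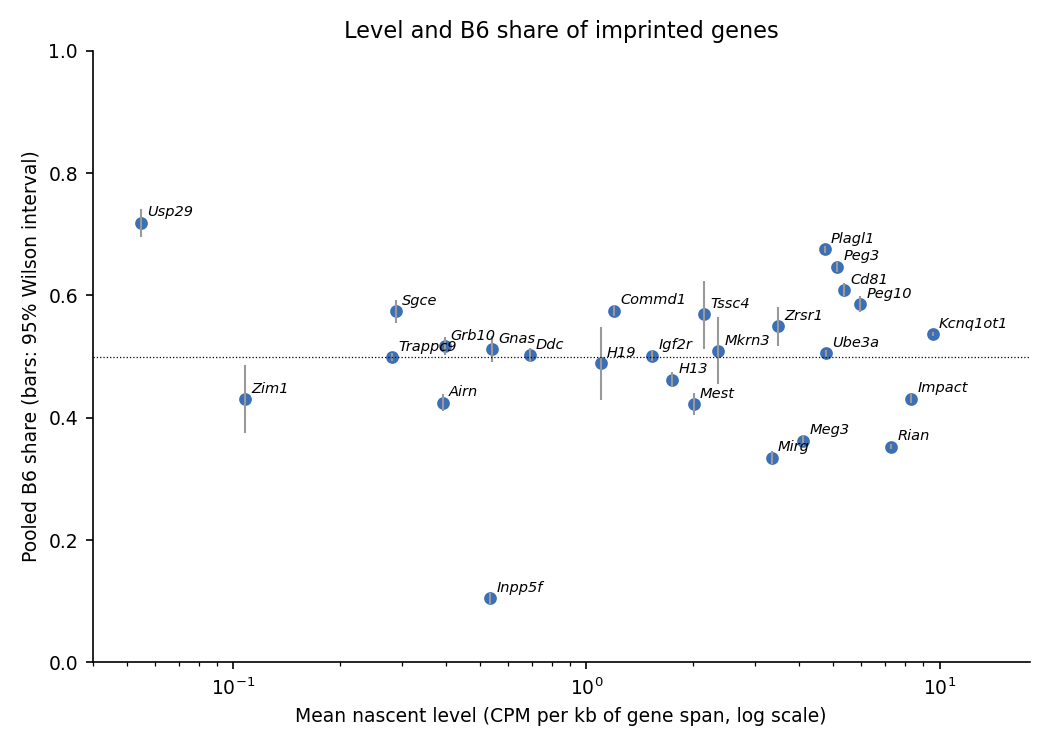
Mean nascent level over the 10 samples (horizontal log axis, CPM per kb of gene span) against the pooled B6 share (vertical axis, with 95% Wilson intervals) of the 27 scored imprinted genes. Inpp5f stands alone at the bottom (0.105) with a level of 0.534 CPM per kb, and the genes of high level include both Kcnq1ot1 (9.57) at a share of 0.537 and Rian (7.30) at 0.353.

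Total nascent counts of imprinted genes were compared between each DOX time and 0 h, to see whether any locus changed its output. The edgeR fit over 14525 genes, which did not pair the replicates, tested 31 of the 40. In this fit none passed an adjusted p under 0.05 at any time. At 4 h 0 were called, against 0.0138% of all genes, at 8 h 0 against 0.193%, at 12 h 0 against 0.95% and at 24 h 0 against 1.85%. From 8 h on most of the genes called were not autosomal. By the same p-values the background over the 14019 autosomal genes was 0.00713%, 0.0%, 0.171% and 0.549% at these times. At an unadjusted p under 0.05 there were 0, 0, 0 and 3 of the 31. Over all 14525 genes 130, 178, 787 and 668 were higher and 174, 411, 886 and 827 lower at this p. DESeq2 also called 0 of the 31 at each time, against 0.0207%, 0.344%, 1.3% and 1.96% of all genes. The median log2 change of the 31 genes at 24 h was -0.04, and that of all genes tested 0.01.

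The replicates differed in a repeatable way. Replicate 1 was above replicate 2 at all 5 times for 14 of the 31 genes, among them Plagl1, Peg3, Airn and H19, and below it for Ddc and Ube3a. Over all 14525 genes tested, 12.3% were above and 9.12% below in this way. The same replicate numbers deviated together between times, so a fit with the replicate number as a block was run as well. With the replicate block 3 imprinted genes were called at 24 h, against 5.32% of all genes and 3.31% of autosomal genes, and 0 at the earlier times.

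Airn, Impact and H19 are those 3 genes. Airn in replicates 1 and 2 was at 48.8 and 38.5 CPM before DOX, 43.6 and 37.8 after 4 h, 48.8 and 38.4 after 8 h, 50.8 and 42.7 after 12 h, and 63.3 and 52.0 after 24 h. The 24 h values were the highest within each replicate and did not overlap those of 0 h. Its log2 change was 0.41 (SE 0.135, edgeR adjusted p = 0.199) without the block and 0.42 (edgeR adjusted p = 2.10e-04) with it. Impact was at 174 and 180 CPM before DOX, 191 and 180 after 4 h, 166 and 183 after 8 h, 171 and 173 after 12 h, and 151 and 151 after 24 h, with the 24 h samples below every other. Its log2 change was -0.22 (SE 0.073, edgeR adjusted p = 0.211) without the block and -0.22 (edgeR adjusted p = 0.0461) with it. H19 was at 5.17 and 2.64 CPM before DOX, 2.39 and 1.92 after 4 h, 3.60 and 2.34 after 8 h, 4.09 and 1.85 after 12 h, and 3.00 and 1.71 after 24 h, and the ranges of 0 h and 24 h overlapped. Its log2 change was -0.72 (SE 0.380, edgeR adjusted p = 0.561) without the block and -0.71 (edgeR adjusted p = 0.0420) with it.

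**Figure D4:**
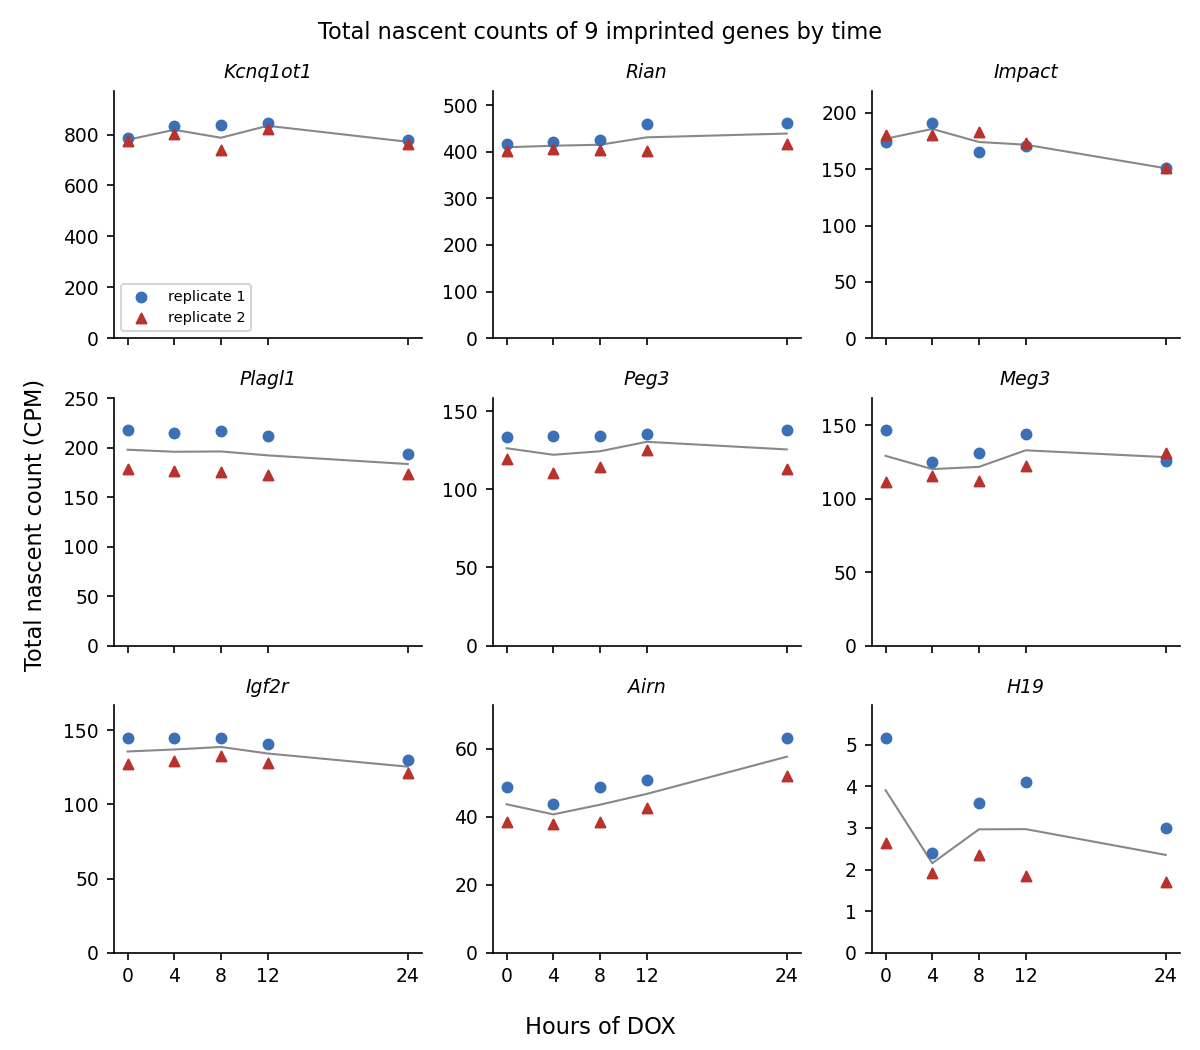
Total nascent counts (vertical axes, CPM, each from 0) of 9 imprinted genes against hours of DOX, with replicates 1 and 2 as separate symbols and a grey line through their mean. Airn lies highest at 24 h (63.3 and 52.0 CPM) and Impact lowest (151 and 151 CPM), while Kcnq1ot1, Peg3 and Meg3 at 24 h lie within or close to the range of their 0 h values.

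Other well-read genes did not pass the test at any time. Kcnq1ot1 was at 786 and 773 CPM at 0 h and at 781 and 763 CPM at 24 h, a change of -0.0023 in log2 units (SE 0.075, edgeR adjusted p = 0.997). Rian was at 417 and 403 CPM at 0 h and at 462 and 416 CPM at 24 h, a change of 0.11 in log2 units (SE 0.081, edgeR adjusted p = 0.732). Ube3a was at 293 CPM in replicate 1 of 0 h and at 354 to 412 CPM in the other samples, so its change at 12 h depended on that sample (a log2 change of 0.23, which became -0.00064 without replicate 1 and 0.49, then past the threshold, without replicate 2 of 0 h). Ndn and Dlk1 fell short of the threshold at 24 h on few counts, with log2 changes of -0.86 (SE 0.348, edgeR adjusted p = 0.370) and -1.01 (SE 0.492, edgeR adjusted p = 0.517).

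The B6 share was compared between each DOX time and 0 h in the model of allele counts, to see whether any gene shifted between its chromosomes. At 4 h 0 of the 27 genes passed, against 0.361% of all genes, at 8 h 0 against 1.66%, and at 12 h 0 against 2.15%. Among the autosomal genes 0.00866%, 0.052% and 0.156% were called at these times by the same p-values. At an unadjusted p under 0.05 there were 1, 0 and 1 of the 27 genes. Over all 11906 genes tested 255, 247 and 326 were higher and 340, 456 and 553 lower at this p. Of the 11543 autosomal genes 254, 246 and 325 were higher and 223, 197 and 269 lower. DESeq2 called 0 of the 27 genes at each of these times. At 24 h 1 gene passed, Peg3, against 2.64% of all genes and 0.355% of autosomal genes.

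Peg3 moved towards B6. Its shares were 0.641 and 0.622 before DOX, 0.644 and 0.634 after 4 h, 0.645 and 0.638 after 8 h, 0.631 and 0.652 after 12 h, and 0.702 and 0.658 after 24 h. The 24 h samples were the highest of the series, and replicate 1 stood above replicate 2. Its B6 to Cast ratio changed by 0.31 on the log2 scale (SE 0.095, edgeR adjusted p = 0.0469), close to the threshold, while its total count had a log2 change of 0.0032 (SE 0.107). Without replicate 1 of 24 h the change was 0.17, without replicate 1 or 2 of 0 h it was 0.37 or 0.25, and the call was lost in each case. It was also lost with DESeq2 (0.31, DESeq2 adjusted p = 0.982).

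Rian had the next smallest p, with a log2 change of -0.15 at 24 h (SE 0.058, edgeR adjusted p = 0.314), which passed when replicate 1 of 0 h (-0.28) or replicate 2 of 24 h (-0.25) was left out. Inpp5f had a change of -0.22 in log2 units (SE 0.228, edgeR adjusted p = 0.933), and the changes of the 27 genes at 24 h ran from -0.52 for H19 to 0.35 for Zrsr1, with a median of -0.03.

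**Figure D5:**
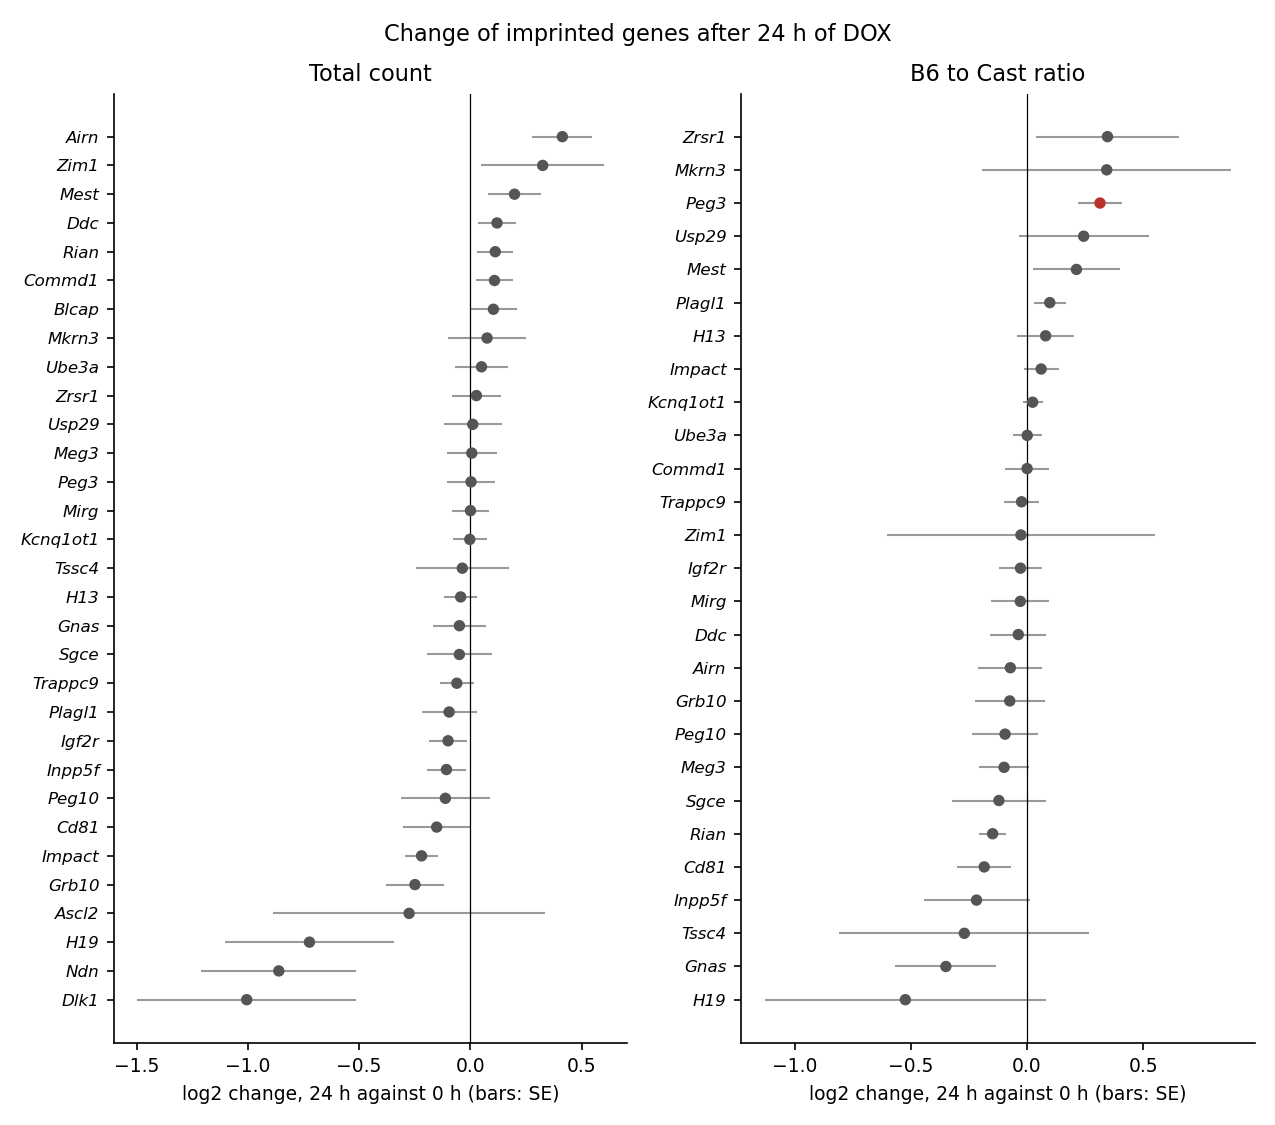
log2 change from 0 h to 24 h of DOX (horizontal axes, bars are standard errors) in total count for 31 imprinted genes (left) and in the B6 to Cast ratio for 27 (right), red where the edgeR adjusted p is under 0.05. Both fits are without the replicate block. Peg3 (0.31) is the single red point, and genes with long bars such as Dlk1 and H19 have few reads.

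A second list held 48 further genes reported as imprinted in mouse, some of them in single tissues. Of the 36 with at least 10 pooled allelic reads, 3 were near single-allele, 3 intermediate and 30 biallelic. Over 15244 autosomal genes these classes held 3.49%, 12.2% and 84.3%. Qpct, a peptide-modifying enzyme gene, had a share of 0.908 (0.887 to 0.924) of 941 reads, from 0.837 to 0.958 over the samples. Tnfrsf23, a decoy receptor gene in the Kcnq1 domain, had 8 B6 and 84 Cast reads, a share of 0.087 (0.045 to 0.162). Only 3 samples had at least 10 allelic reads for Tnfrsf23, with shares from 0.100 to 0.133. Dio3, a thyroid hormone deiodinase gene beside the Meg3 cluster, had 0 of 26 reads from B6, a share of 0 (0 to 0.129). The intervals of all 3 genes reach past the limit of 0.9 or 0.1, so their class was not settled at this depth.

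Tnfrsf22 (0.710), Sfmbt2 (0.724) and Asb4 (0.294) were the intermediate ones. Of 29 genes tested for a ratio beyond 2-fold, Qpct (log2 ratio 3.28), Sfmbt2 (1.39) and Tnfrsf22 (1.29) passed, all with more B6 reads. Of all genes tested 9.82% passed, and of autosomal genes 9.78%. For the total count, 1 of 34 was higher at 12 h, against 0.95% of all genes and 0.171% of autosomal genes. At 24 h 1 was higher and 1 lower, against 1.85% and 0.549%. For the B6 share 0 passed at any time in edgeR, with 1, 1, 0 and 0 at an unadjusted p under 0.05. Over all 11906 genes tested 255, 247, 326 and 380 were higher and 340, 456, 553 and 597 lower at this p. Cobl, a gene of actin nucleation beside Grb10, rose by 0.46 on the log2 scale at 12 h (SE 0.083, edgeR adjusted p = 0.0119). Its change was 0.43 at 24 h (SE 0.083, edgeR adjusted p = 0.0115). Sfmbt2, a Polycomb-related gene of the placenta, changed by -0.52 at 24 h (SE 0.109, edgeR adjusted p = 0.0202). With the replicate block 3 were higher at 12 h (Cobl, Herc3 and Snhg14), and at 24 h 1 was higher (Cobl) and 2 were lower (Sfmbt2 and Atp10a), against 4.94% of all genes and 3.12% of autosomal genes at 12 h and 5.32% and 3.31% at 24 h.

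The 8 factors that set or hold imprints, Zfp57, Zfp445, Trim28, Setdb1, Dppa3, Dnmt1, Uhrf1 and Ctcf, were all transcribed and all biallelic. Zfp57 ran from 194 to 277 CPM, with a share of 0.540, and Dppa3 from 5.23 to 7.53 CPM, with a share of 0.364. None passed the edgeR test of total count or of B6 share at any time, with the log2 change in total count between -0.09 and 0.15 at 24 h.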

How the data were processed

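TT-seq libraries of 10 samples (5 DOX times, 2 replicates each) were analysed, grouped by the time in the sample labels. The authors trimmed reads, mapped them with STAR to the mm10 genome masked at strain differences, split them by allele with SNPsplit and counted read pairs by strand over whole gene spans with featureCounts 1.5.1. TopHat2 2.1.0 and bedtools also stand in the submitters' processing notes. The authors deposited raw counts per gene (all, B6 and Cast), without normalization, and the fraction B6/(B6 + Cast), their d-score. Deposited starts were read as 0-based and printed plus 1. CPM are counts scaled by the sample total.

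The 40 genes and the other lists were chosen with earlier results of these data known. For total counts, edgeR 4.0.16 (R 4.3.3) fitted time over all 10 samples by quasi-likelihood after filterByExpr and TMM. Allele counts were fitted as 20 columns, without scaling between alleles, where each sample had its own intercept and the allele effect could change with time. Genes needed 10 or more allelic reads per sample throughout. The 2-fold limit was tested with glmTreat. Tests were two-sided, and p-values were adjusted by Benjamini-Hochberg over all genes tested, with 0.05 as threshold, and the percentages of autosomal genes use these same p-values. DESeq2 1.42.0 was an alternative. Scripts were tested on simulated data.

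Replicates of a time differed by more than sampling noise (chi-square per degree of freedom 4.37 to 9.14, highest at 0 h). The differences between replicates 1 and 2 of the total counts correlated across genes between all 10 pairs of times (r = 0.142 to 0.281), so the numbers were taken as pairing the samples for total counts, and blocked values are given where they change a call. For the B6 share these correlations were at most 0.032, and the numbers were not taken as pairing. Per-sample values were given in full for genes with an intermediate share, genes past a test of change with or without the block, and the 5 biallelic genes with the most allelic reads. Alternatives were another tool, scaling, filter, ratio limit, replicate block, and leaving out each sample in turn. Promoter windows came from RefSeq (GRCm38.p6).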

Additional observations from a re-analysis of the deposited data

How the results depend on the processing

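The count of near single-allele genes among the imprinted genes, 0 in the report, became 1 (Inpp5f) with limits of 0.8 and 0.2, in the 24 h samples alone (share 0.0938), or after centring shares on the autosomal median (0.0966). Leaving out each sample in turn gave 0 to 1, the 1 being Ascl2 without replicate 1 of 4 h, from few reads. The count of genes beyond 2-fold, 3 in the report, was 1 (Inpp5f) with a 4-fold limit or in the 0 h samples alone and 20 with no limit, the last chosen after seeing the data. The log2 ratio of Grb10 turned from 0.10 to -0.027 when each allele column was scaled.

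For the total count at 24 h, 0 genes became 1 (Airn, edgeR adjusted p = 0.0411) without the filter on low counts and 3 with the replicate block. At 12 h, leaving out each sample gave 0 to 1 genes, and the log2 change of Ube3a then ran from -0.000644 without replicate 1 of 0 h to 0.49 without replicate 2 of 0 h. For the B6 share at 24 h, the 1 call became 0 with DESeq2, with at least 50 allelic reads, or with p-values adjusted over autosomal genes only, which was chosen after seeing the data. Leaving out each sample gave 0 to 2 calls: Rian in place of Peg3 without replicate 1 of 0 h, none without replicate 2 of 0 h or replicate 1 of 24 h, and both without replicate 2 of 24 h. The replicate block changed no other call among the imprinted genes, and the causes of these changes were not tested. Depth limits the shares of Ascl2, Dlk1, Ndn and Slc22a18, each with under 50 allelic reads in all.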
